A study of Mus musculus with 8 samples.

Results

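The cytosolic ribosomal protein genes were followed across 8 RNA sequencing libraries of sorted C low-threshold mechanoreceptors (C-LTMRs), unmyelinated touch neurons of the dorsal root ganglia. Members were chosen by symbol, as the genes whose name begins with Rpl or Rps and goes on with a digit, p or a, without the Rps6k kinases and without pseudogene symbols holding "-ps". The rule gave 93 of the 55573 genes of the count table. Of these, 77 belong to the standard set of ribosomal proteins, 46 of the large and 31 of the small subunit. A further 9 are paralogues and 6 are near-identical copies, and Rps19bp1 matches the rule without being a ribosomal protein, so 92 genes entered the subunit sums. The annotation calls 86 members protein coding and 7 processed pseudogenes. Fau and Rack1 are ribosomal proteins outside the symbol rule and are given beside it.

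The neurons were sorted by their GFP from adult mice of 2 genotypes, WT and bhlha9 KO. Bhlha9 encodes a transcription factor of the basic helix-loop-helix class. The 4 groups were male WT, male KO, female WT and female KO, each with 2 libraries that the submitters call biological replicates. All 4 groups share the GFP and the sort. The driver of the GFP, the number of mice behind a library and the strain are not given in the sources used here. Between 50919885 and 71956309 counts were assigned to genes per library. Bhlha9 lay between 127 and 161 counts per 1000000 assigned counts (CPM) in the 4 WT libraries and between 0.156 and 0.47 CPM in the 4 KO libraries. Markers of C-LTMRs were present in all 8 libraries, with Th, tyrosine hydroxylase, between 2980 and 5360 CPM.

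Each ribosome joins a large and a small subunit, built from ribosomal RNAs and one copy of most ribosomal proteins. The large subunit joins amino acids and the small subunit reads the mRNA. Messages of ribosomal proteins begin with a C followed by a run of pyrimidines, the terminal oligopyrimidine or TOP motif, through which mTOR signalling and Larp1 control their translation together. Their genes have left many processed pseudogenes in mammalian genomes, so reads from them are often hard to place. Neurons keep large pools of these messages in the cell body and also carry some into axons.

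The TOP feature was looked for at the annotated start sites. RefSeq promoter windows (GRCm38.p6, 250 bases before to 50 bases after a start) were found by symbol for 57 of the 77 standard genes. In 12 of these, or 21.1%, the start base was a C followed by at least 4 pyrimidines, against 2.2% of 16521 protein-coding genes. Within 10 bases of the start, the feature was found in 50.9% of the windows and in 31.2% of all. The 5 windows below, all of small subunit genes, are shown as examples of starts that carry the feature, and they include the near-identical pair Rps27 and Rps27rt. They run from 10 bases before the start to the 15th base of the transcript, on the strand of the gene. Capitals mark the pyrimidine run that holds the start base, the 11th letter.
Rps27, chr3:90213634-90213658, minus strand: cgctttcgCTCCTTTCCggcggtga
Rps27rt, chr9:114982725-114982749, minus strand: ttatcccttgCTTTCCggcggtgac
Rps21, chr2:180257369-180257393, plus strand: aggacccgCCCTCCTgcccaatagt
Rps18, chr17:33955651-33955675, minus strand: cacttccgCTCTCTCTTCCacagga
Rps6, chr4:86857353-86857377, minus strand: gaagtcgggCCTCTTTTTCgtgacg

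Promoter words were counted in the same windows on both strands. CCGGAAG, the core of sites bound by ETS factors, was in 38.6% of the 57 windows and in 12.4% of all 16521. AAGATGG, the core of YY1 sites, was in 14% and in 6.4%. TATAAA was in 8.8% and in 12.9%. CANNTG, the E-box letters that basic helix-loop-helix proteins can bind, was in 49.1% and in 68.4%. CCGGAAG and AAGATGG can overlap by the letters AAG. A match is a description of the window, not a site.

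The paralogues differ widely in how far they can be told from their partners. The coding starts of 2 families are shown because the pairs carry opposite cases. Rps27l differs from Rps27 throughout and Rps27rt, a gene on chromosome 9 with a start and end of 114982366 and 114982739, has the same coding bases as Rps27 on chromosome 3. Each line gives coding bases 1 to 60, and capitals mark bases that differ from the partner named first in the family, in the GRCm38 annotation of GENCODE.
Rps27: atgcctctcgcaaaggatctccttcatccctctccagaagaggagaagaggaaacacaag
Rps27rt: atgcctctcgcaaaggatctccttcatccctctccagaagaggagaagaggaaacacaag
Rps27l: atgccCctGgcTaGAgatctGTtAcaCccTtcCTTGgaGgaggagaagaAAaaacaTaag
Rpl36a: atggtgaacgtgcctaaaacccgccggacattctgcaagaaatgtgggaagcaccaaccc
Rpl36al: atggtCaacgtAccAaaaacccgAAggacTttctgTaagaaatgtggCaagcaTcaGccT

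Over the aligned coding sequence, Rps27rt was 100% identical to Rps27 and Rps27l was 76.2% identical. Rpl36al was 87.7% identical to Rpl36a, Rpl22l1 was 70.2% identical to Rpl22, and Rpl7l1 was 60.3% identical to Rpl7. Rps4l, annotated as a transcribed processed pseudogene, was 79.6% identical to Rps4x. The 6 copies, among them Rpl37rt, Rps3a2 and Rps3a3, were 97.2% to 100% identical to their partners.

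Per the file header, the counted alignment files are named as unique and the count command holds no option for multiply aligned reads. The part of this likeness in the counts was not tested. Each member's coding sequence was cut into all windows of 50 bases, and a window was called shared if its letters occur in a transcript of another gene that does not overlap it. Rps3, which lines the mRNA entry of the small subunit, shared 8.1%, Rpl8 8.7% and Rpl4 20.3%. By contrast 29 of the 77 standard genes shared every window, among them Rpl5 and Rpl11, the partners of 5S RNA, and Rps6, the substrate of S6 kinase. Another 11 standard genes shared under 50%.

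Per kilobase of summed exon length (RPKM), the standard genes spanned a 275-fold range. Rplp1, an acidic stalk protein that recruits elongation factors, had the highest mean at 187 ± 49.6 RPKM (SD over 8 libraries), followed in the large subunit by Rpl41 at 155 ± 47.4, Rpl8 at 116 ± 29.1, the copy Rpl37rt at 114 ± 33.5 and Rpl4 at 112 ± 6.11. Among the highest of the small subunit were Rps15 at 149 ± 37.8 RPKM, Rps4l at 118 ± 20.0 and Rps27rt at 108 ± 36.4. These SDs hold differences between libraries that many members share, so they do not measure how well neighbouring genes are ranked. The order of the named genes was not tested. At the low end stood Rps13 at 0.68 RPKM, Rpl9 at 0.711 and Rps12 at 0.93, all with every coding window shared. Cells hold ribosomal proteins in nearly equal numbers, and these values describe what was counted.

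**Figure D1:**
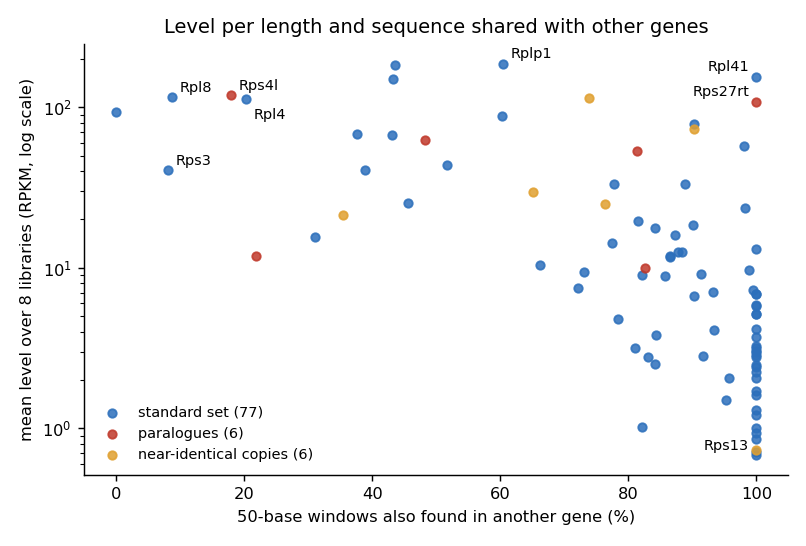
Mean level of each of the tested members over the 8 libraries (RPKM, log scale) against the percentage of its 50-base coding windows that also occur in another gene. Tested members that shared under 50% of windows all lie above 10 RPKM, and most genes at 100% lie below 10 RPKM, with Rpl41 and Rps27rt above 100 RPKM. The 3 members at or near 0 counts are not drawn.

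The 15 tested ribosomal protein members with under 50% shared windows had a median of 67.5 RPKM and a range of 11.9 to 184 RPKM. The 31 with every window shared had a median of 2.85 RPKM, from 0.68 to 155 RPKM. Across the 77 standard genes, Spearman's rho between the shared percentage and the RPKM was -0.68, as a description across genes, which are not independent replicates. With the length of the principal transcript in place of the summed exon length, rho was -0.71. Rpl41, whose coding sequence is only 75 bases, stood at 155 RPKM although all 26 of its windows were shared. Its transcript is 544 bases long, so most of it was not scanned. The 300 ribosomal protein rows with "-ps" symbols, outside the members, held 63.7 to 69.3 counts for every 100 counts of the members in each library. How many of those reads came from the parent genes was not tested.

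Several members with known roles in or outside the ribosome could be read only at these limits. Rplp0, the stalk base, was at 88.2 ± 8.44 RPKM, and Rplp2, partner of Rplp1, was at 10.5 ± 2.52 RPKM. Rpl13a, which takes part in silencing inflammatory messages, was at 40.8 ± 9.80 RPKM with 38.8% of windows shared. Rpl5 and Rpl11, which bind Mdm2 when ribosome assembly fails, were at 3.24 ± 0.836 and 1.22 ± 0.375 RPKM. Rpsa, also known as the laminin receptor, was at 9.62 ± 2.04 RPKM. Rps19, the gene most often mutated in Diamond-Blackfan anaemia, was at 3.16 ± 0.78 RPKM, and Rpl38, needed for patterning of the axial skeleton, at 3.01 ± 1.23 RPKM. Rps27a, which is made as a fusion with ubiquitin, was at 1.62 ± 0.394 RPKM, Rpl3 at 2.05 ± 0.36 RPKM, Rpl10 at 1.30 ± 0.583 RPKM and Rps3 at 40.5 ± 8.61 RPKM. Of the members, 40 have exons that share bases with another gene, 20 of them on the opposite strand. Counting ignored strand and gave a read to every gene it overlapped, so those reads are in both genes.

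At or near 0 stood 3 members. Rpl10l and Rpl39l, which are known from testis, had 0 counts in all 8 libraries. Rpl3l, a form of heart and skeletal muscle, had 2 counts in male WT 2 and 0 counts in the other libraries. These 3 did not pass the filter on low counts, and 90 members were tested.

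Counts of the 92 genes, 7 of them annotated as pseudogenes, made up 0.242% to 0.405% of all counts. The "-ps" rows outside the members made up another 0.154% to 0.281%, and mitochondrial ribosomal protein genes 0.436% to 0.584%. How far these shares stand for the messages in the cells was not tested. The sum over the 92 genes was 3078 CPM in male WT 1 and 2778 CPM in male WT 2. It was 3963 CPM in male KO 1 and 2457 CPM in male KO 2. It was 4064 and 3893 CPM in the female WT libraries, and 4011 and 3322 CPM in the female KO libraries. Male KO 1 lay among the female WT libraries and male KO 2 was the lowest of all 8, so the male KO libraries enclose both male WT libraries. In bulk samples fewer cells of a type and less RNA per cell cannot be told apart. The ratio of KO to WT means was 1.096 in males and 0.922 in females, with a propagated SD of 0.372 and 0.126, so both differences were smaller than the spread between libraries.

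**Figure D2:**
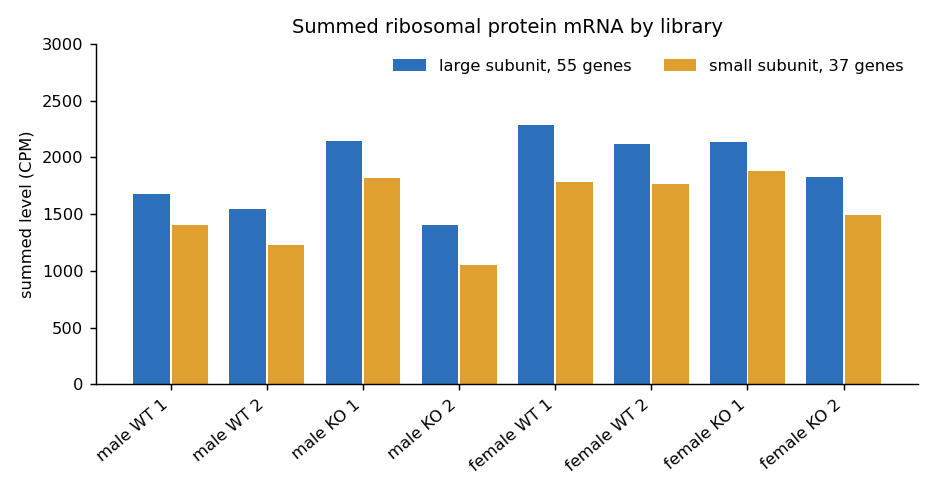
Summed CPM of the 55 large subunit members (blue) and of the 37 small subunit members (orange) in each library. The large subunit bar is the higher in all 8 libraries, and male KO 1 and male KO 2 differ more than any group mean differs from another.

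The large subunit summed to more than the small one in every library. The sums cover 55 large and 37 small subunit members, so the higher sum is not a higher level per gene. The median level of a tested member was 19.8 CPM in the large and 20.6 CPM in the small subunit. The ratio of the sums was 1.193 and 1.261 in male WT, 1.183 and 1.338 in male KO, 1.283 and 1.199 in female WT and 1.135 and 1.226 in female KO. Its mean was 1.227 ± 0.0643 (SD, n = 8), and the range of the KO libraries encloses that of the WT libraries. With the standard set alone the mean ratio was 1.311.

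Library to library, most members were lowest in the same library. The lowest of the 8 values was in male KO 2 for 63 of the 89 tested ribosomal protein members, against 14.7% of all tested genes. Over all pairs of the 89 genes the median Pearson correlation of log2 CPM across the 8 libraries was 0.57, and 86.2% of 3916 pairs were above 0. Over all pairs of tested genes the median was 0.00 and 50.1% were above 0. These pairs share libraries and depth, and the values are a description. Male KO 1 stood above male KO 2 in 81 of 89, with a median difference of 0.83 log2 units. Among all tested genes 50% were higher in male KO 1, with a median difference of 0.00. Female KO 1 stood above female KO 2 in 75 of 89 members, with a median difference of 0.31 log2 units. In the WT groups the medians between replicates were 0.12 (males) and 0.05 (females).

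Single members show the pattern at different sizes. Rps3, with 8.1% of windows shared, had 174 and 141 CPM in male WT, 217 and 118 in male KO, 214 and 217 in female WT, and 210 and 163 in female KO. Male KO 2 is the lowest of the 8, and male KO 1 lies with the female WT libraries. Rpl41 had 130 and 129 CPM in male WT, 224 and 100 in male KO, 240 and 196 in female WT, and 245 and 186 in female KO. Here female KO 1 is the highest and male KO 2 again the lowest. Rpl4, a protein of the exit tunnel, had 209 and 218 CPM in male WT, 238 and 233 in male KO, 227 and 245 in female WT, and 219 and 218 in female KO. Rpl4 was not low in male KO 2, and its coefficient of variation (CV) of 5.43% was the lowest of all members.

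The median CV of the 89 members over the 8 libraries was 25.2%, against 37.5% for all 22013 tested genes. Tested genes with a mean of at least 100 CPM had a median CV of 16%, and the 10 members above that level had 21.1%. After Rpl4 the steadiest were Rplp0 at 9.56% and Rpl18 at 10.9%. The most variable were Rpl9 at 79.6%, Rps12 at 72.4% and Rps13 at 59.3%, with means of 2.19, 1.89 and 1.83 CPM. Rps12 ran from 0.385 CPM in male KO 2 to 3.82 CPM in male WT 1, a 9.92-fold range. Low members were the more variable, with a Spearman rho of -0.53 between mean CPM and CV across the 77 standard genes. No molecular identifiers are named in the protocols, so counts include copies from 13 cycles of cDNA amplification and 12 of library amplification.

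Other short messages had library medians close to those of the members. Each gene's log2 CPM was centred on its mean over the 8 libraries. The members' median was -0.12 and -0.27 in male WT, 0.26 and -0.55 in male KO, 0.25 and 0.22 in female WT, and 0.27 and -0.03 in female KO. For 350 other protein-coding genes of at least 5 CPM whose main transcript has up to 800 bases, it was -0.12 and -0.31, 0.28 and -0.42, 0.23 and 0.22, and 0.23 and -0.04 in the same order. These genes were grouped by length after the library pattern had been seen. For 4900 such genes with transcripts over 3000 bases the medians stayed between -0.07 and 0.10. The standard set has a median transcript length of 774 bases. Its 35 genes over 800 bases still differed by a median of 0.78 log2 units between male KO 1 and male KO 2, and its 42 shorter genes by 0.84. Other genes of over 800 to 1500 bases differed by 0.23. The part of transcript length in the members' pattern was not tested.

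**Figure D3:**
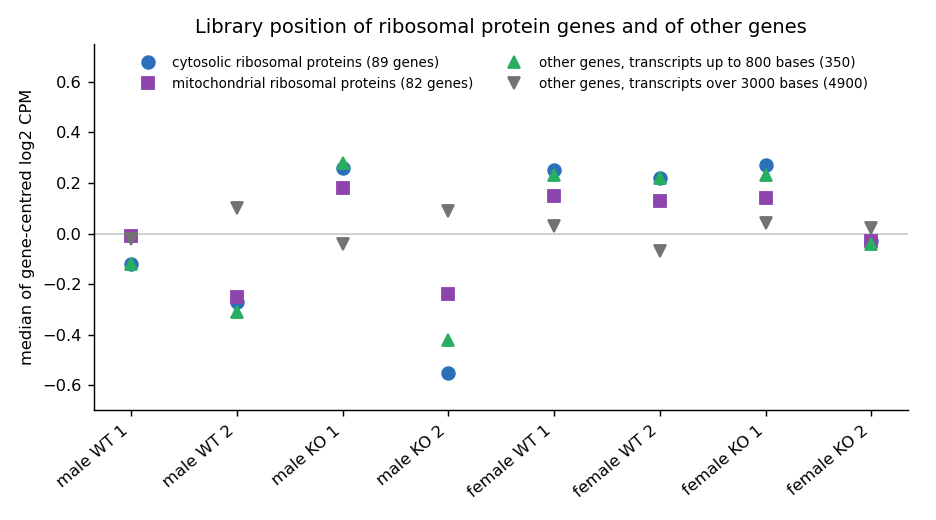
Median of log2 CPM, with each gene centred on its mean over the 8 libraries, for 4 sets of genes in each library. Cytosolic ribosomal proteins and other genes with transcripts up to 800 bases lie close together in every library, lowest in male KO 2, and long transcripts stay near 0.

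Markers of other cells also differ between these libraries. The 7 markers of myelinated afferents summed to 2050 CPM in male KO 1 and to 351 to 593 CPM in the other 7 libraries. Nefh alone gave 1550 of the 2050 CPM, while Necab2 of the same list was at its lowest there, at 55.8 CPM. The 9 C-LTMR markers summed to 4780 CPM in male KO 1 and to 6490 to 8730 CPM in the others. Male KO 2 held the highest sums of peptidergic (7 genes, 1710 CPM against 236 to 1490 CPM) and nonpeptidergic markers (5 genes, 210 CPM against 3.06 to 76.5 CPM). Within the nonpeptidergic list Nppb and Sst had 0 counts in both male KO libraries. Sums of 8 glial markers ran from 906 CPM in male WT 2 to 3930 CPM in male KO 1, where Apoe gave 3040 CPM and Mbp was at its lowest, 359 CPM. Immune markers (6 genes) summed to 11.8 to 25.4 CPM, with Ptprc and Lyz2 at 0 counts in both male KO libraries. Vascular and fibroblast markers (7 genes) lay between 1.92 and 55.4 CPM, the highest in male KO 1, and red blood cell markers (5 genes) between 0.225 and 20.6 CPM. Their part in the ribosomal protein values was not tested.

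No ribosomal protein gene passed the test of KO against WT. With edgeR's quasi-likelihood test and Benjamini-Hochberg adjustment over 22013 genes, 0 of 90 members passed in males, in females, in both sexes together or in the difference between the sexes. The background was 0.00454% of all genes in each of the first 3 comparisons, which is Bhlha9 alone, and 0% in the last. At an unadjusted edgeR p below 0.05 there were again 0 members in each comparison, against 3.5% (males), 3.81% (females), 3.56% (both sexes) and 4.73% (sex difference) of all genes. DESeq2 also called 0 members in each, against 0.913%, 0.878%, 0.251% and 1.12% of the genes it could adjust. The authors' deposited tables list 150 genes for males and 13 for females, and 0 members are among them. A p that misses the threshold does not show that levels were equal, and the median standard error of a member's log2 fold change was 0.39 within a sex.

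As a list, the members leaned in opposite directions in the sexes without any passing. In males 62 of 90 were higher in KO and 28 lower, with a median log2 fold change of 0.11, against 51.9% higher and a median of 0.02 over all genes. In females 32 were higher and 58 lower, with a median of -0.12, against 49.0% higher and a median of 0.00. In both sexes together it was 43 and 47, with a median of -0.01. The male median rests on 1 library each way: it was -0.29 without male KO 1, with 82 members lower, and 0.43 without male KO 2, with 72 higher. In the fit without male KO 2, 12 of 90 members, or 13.3%, had an unadjusted edgeR p below 0.05, against 7.3% of 24547 genes, and 0 passed after adjustment. The female median was 0.04 without female KO 2 and -0.27 without female KO 1. The median of the sex difference, male minus female, was 0.27, and it was -0.27 without male KO 1 and 0.56 without male KO 2.

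**Figure D4:**
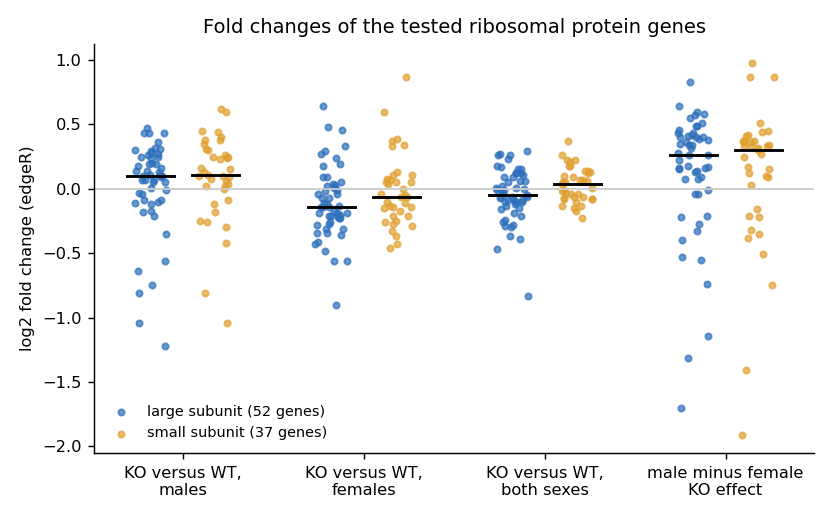
Log2 fold changes from edgeR of the 52 large and 37 small subunit members that were tested, with the median of each set as a black bar. Medians lie between -0.14 and 0.30, and the widest values belong to members of a few CPM.

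The values of the 2 subunits lay close to each other, and their difference was not tested. In males the median log2 fold change was 0.10 over 52 large and 0.11 over 37 small subunit members. In females it was -0.14 and -0.06, and in both sexes -0.05 and 0.04. The 31 members with every window shared had medians of 0.04 (males) and -0.02 (females), and the 15 with under 50% shared had 0.13 and -0.11.

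The smallest p values belonged to Rpl8 and Rpl10a. Rpl8, near the peptidyl transferase centre, had 138 and 121 CPM in male WT, 199 and 113 in male KO, 219 and 190 in female WT, and 142 and 136 in female KO. Both female KO libraries lay below both female WT libraries, while the male groups overlapped. Its log2 fold change in females was -0.56 ± 0.27 (SE; edgeR unadjusted p = 0.0798, adjusted p = 1), and the sex difference was 0.83 ± 0.38 (edgeR unadjusted p = 0.0689, adjusted p = 0.98). Rpl10a, a large subunit protein that some ribosomes are reported to lack, had 20.6 and 23.6 CPM in male WT and 15.6 and 14.4 CPM in male KO, and its female groups overlapped. Its log2 fold change in males was -0.56 ± 0.28 (edgeR unadjusted p = 0.0898, adjusted p = 1).

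Libraries of KO and WT did not overlap for few members in males and for more in females. In males 3 members had both KO libraries above both WT libraries (Rpl4, Rps19bp1 and Rps3a3), where 14.5% of all genes did, and 9 had both below, against 14.5%. In females 4 members lay above, against 14.2% of all genes, and 23 lay below, or 25.6% of the tested members against 15.1% of all genes. The 23 include Rpl8, Rpl15, Rpl7a, Rpl37 and Rplp2, whose log2 fold changes were -0.56, -0.41, -0.36, -0.34 and -0.34. In males the members below included Rpl10a, Rps6 and Rpl3, at -0.56, -0.42 and -0.35. Rps6 lay the other way in females, at 0.33, with both KO libraries above both WT libraries. Its values were 12.2 and 9.46 CPM in male WT, 8.01 and 8.23 in male KO, 7.11 and 9.14 in female WT, and 10.4 and 10 in female KO. The sex difference of Rps6 was -0.75 ± 0.49 (edgeR unadjusted p = 0.172, adjusted p = 1).

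Summed CPM of the ribosomal protein genes was higher in both female WT libraries than in both male WT libraries. The sums of 4064 and 3893 CPM lay above 3078 and 2778 CPM. Male KO 1, at 3963 CPM, lay between the female WT libraries. Both female WT libraries were above both male WT libraries in 59 of 90 members, or 65.6%, against 19.6% of all genes, and below them in 7, against 18.8%. Members move together across libraries, so they are not separate observations of such a difference. This comparison was added after the values were seen and has no test of its own. The 350 short messages named above differ in the same direction, with medians of 0.23 and 0.22 in female WT against -0.12 and -0.31 in male WT.

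No paralogue share passed the test of KO against WT. The share of a paralogue in the summed RPKM of its pair was compared over 4 KO and 4 WT libraries with a two-sided exact permutation test of 70 arrangements, for the 6 of 9 pairs with both members tested. The arrangements did not hold sex fixed, so differences between the sexes enter the spread behind these p values. Rpl22l1, a paralogue of Rpl22 with roles in splicing and development, made up 30.8% and 33.6% of its pair in male WT, 40.4% and 31.7% in male KO, 35% and 44.2% in female WT, and 50.4% and 39.1% in female KO. The difference of means, KO minus WT, was 4.54 percentage points (exact permutation p = 0.371, adjusted over 6 pairs 0.557). Rpl7l1, a protein tied to ribosome assembly, ran from 34.2% to 56.7%, and the difference was -5.05 points (exact permutation p = 0.371, adjusted 0.557). The size of a share depends on the gene length used. With the principal transcript length, added after seeing the data, Rpl22l1 ran from 20.7% to 37.4% and Rpl7l1 from 23.2% to 43.2%. By CPM, without a length, they ran from 23.3% to 41.0% and from 40.4% to 63.0%. KO and WT overlapped in both pairs. Single libraries moved both values: the Rpl22l1 difference was 1.19 points without female KO 1, 2.84 without male WT 1, 7.31 without female WT 2 and 7.44 without male KO 2. The Rpl7l1 difference was -1.99 points without female KO 1, -3.20 without male WT 2 and -9.47 without male KO 2, where its unadjusted exact permutation p was 0.0571. Male KO 2 was the only KO library not below all 4 WT libraries in this pair. Leaving it out separates the groups, so that p follows from the choice of library.

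In the other pairs the paralogue had the far higher RPKM in every library. Rpl36al made up 94.9% ± 1.27 (SD, n = 8) of its pair with Rpl36a, Rps27l 95.7% ± 1.22 and Rps27rt 97.4% ± 0.621 of their pairs with Rps27, and Rps4l 86.4% ± 2.53 of its pair with Rps4x. Rps27 and Rpl36a share every coding window with other genes, and Rps4x shares 90.1%, while Rps27l shares 48.3% and Rps4l 18%. The other two paralogues also share most or all of their windows, Rpl36al 81.4% and Rps27rt 100%. The differences between KO and WT were -1.10 points for Rpl36al, 0.68 for Rps27l, 0.38 for Rps4l and 0.72 for Rps27rt. Their exact permutation p values were 0.257, 0.514, 0.857 and 0.114, and 0.557, 0.617, 0.857 and 0.557 after adjustment. Rps27rt was 98.1% in 3 of 4 KO libraries and 96.8% in female KO 2, against 96.7%, 97.5%, 97% and 97% in WT.

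**Figure D5:**
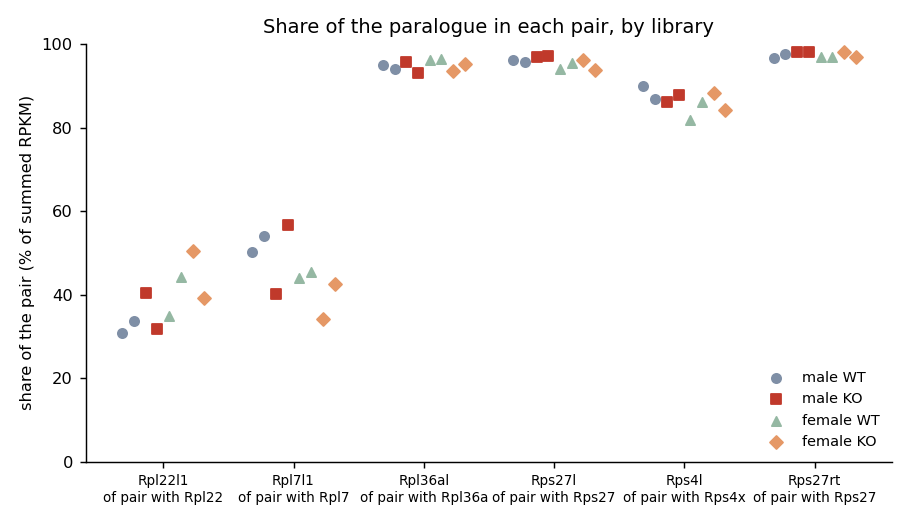
Share of the first gene of each pair in the summed RPKM of the pair, 1 symbol per library. KO and WT libraries overlap in all 6 pairs, and 4 pairs lie above 80% in every library.

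Genes that work with the ribosome were read from lists chosen with earlier results of these data known. Fau, made as a fusion with a ubiquitin-like protein, had log2 fold changes of 0.23 ± 0.42 (SE) in males and 0.00 ± 0.42 in females. Rack1, a scaffold on the small subunit, had -0.22 ± 0.24 and -0.03 ± 0.24. Both were lowest in male KO 2, at 7.09 and 79.1 CPM. No gene of the other lists passed in any comparison.

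Of 18 elongation factor and other TOP genes, 9 were higher and 9 lower in male KO (median 0.02), and 7 and 11 in female KO (median -0.09). Of 40 ribosome assembly genes, 14 were higher and 26 lower in males (median -0.06), and 20 and 20 in females (median -0.01). Of 17 genes of mTOR control, which include Mtor, Larp1 and Eif4ebp1, 7 were higher and 10 lower in males (median -0.03), and 10 and 7 in females (median 0.16). Of 82 tested mitochondrial ribosomal protein genes, 53 were higher in males (median 0.10) and 28 in females (median -0.06). Their library medians, from -0.25 to 0.18, put male WT 2 and male KO 2 lowest and male KO 1 highest. The ribosome assembly genes had library medians between -0.11 and 0.10. At an unadjusted edgeR p below 0.05 there were 3 of these 40 genes in males and 1 in females, all lower in KO. Over all genes it was 3.5% and 3.81%. Ubtf was in both, at log2 fold changes of -0.85 ± 0.18 and -0.44 ± 0.18 (SE), and is named after the values were seen. Among the mitochondrial genes 2 higher and 3 lower did so in females, and no other list had any within a sex.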

How the data were processed

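Per the labels' protocols, cDNA was made from 500 pg of total RNA with SMART-Seq v4, and libraries with Nextera XT. Per the file header, counts are whole reads per gene over exons of Ensembl release 97 on GRCm38, made by the authors with featureCounts 1.6.1, with no strand setting, from alignment files named as unique, and a read overlapping several genes counts in each. DESeq2 1.14.1, Subread 1.6.4 and bcl2fastq 2.17.1.14 are named in the submitters' processing notes. Which aligner made the files was not given in the sources used here. The authors' deposited tables hold log2 fold changes and p-values of genes past 5%, and were used only to look for members.

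Symbols came from a gene table by identifier, and 55394 of 55573 matched. Genes were kept by filterByExpr of edgeR (22013) and scaled by TMM. The quasi-likelihood test of edgeR 4.0.16 (R 4.3.3, robust) was fitted to 4 groups over 8 libraries, and to sex plus genotype for both sexes. All tests were two-sided, with an adjusted p threshold of 0.05 over all tested genes, and SE is the size of the log2 fold change divided by the root of F. The script was tested on simulated data. CPM uses scaled library sizes, RPKM divides by the deposited exon length, which counts rare isoforms and lowers the value, and log2 CPM has a prior count of 2. P-values rest on the spread between 2 libraries a group. Sequences are from GENCODE M21 and RefSeq (GRCm38.p6).

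Alternatives were DESeq2 1.42.0, other scalings and filters, the replicate block, other gene lengths, and leaving out each library. The members and lists were chosen with earlier results of these data known. Genes were named by a rule: any that passed, the 5 highest RPKM per subunit, all paralogue pairs, the largest changes without overlap of at least 5 CPM, the extremes of CV, and members with known roles. Rps3a2, Rps18 and Rps21 were named outside it, for their sequence or identity. Some genes that the rule names are not reported here.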

Additional observations from a re-analysis of the deposited data

How the results depend on the processing

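Over 18 summary results and their alternatives, the counts of members called stayed at 0 in every alternative, by edgeR and by DESeq2. The median log2 fold change in males ranged from -0.29 (without male KO 1) to 0.43 (without male KO 2), and that of the sex difference from -0.27 to 0.56, when each library was left out. The share of Rps27rt, KO minus WT, ranged from 0.60 to 1.06 points when each library was left out, and was 1.85 points with CPM and 1.98 with the principal transcript length, the latter added after seeing the data, against 0.72 with RPKM. Without female KO 2, the KO library inside the WT range, the 1.06 points had an unadjusted exact permutation p of 0.0286. With 4 against 3 libraries there are 35 arrangements, so this is the smallest p the test can give. Leaving out the only KO library that overlaps WT separates the groups fully. That p follows from the choice of library and is no support for a difference. Leaving out any other library gave 0.114 to 0.229. The share of Rps4l ranged from -1.11 to 1.65 points, that of Rpl22l1 from 1.19 to 7.44, of Rpl7l1 from -9.47 to -1.99, of Rpl36al from -1.60 to -0.66 and of Rps27l from 0.24 to 1.41. The ratio of large to small subunit sums was 1.311 with the standard set alone, an alternative added after seeing the data.

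Replicate numbers are shared between groups, and the labels name no shared source for a number. Over all genes the deviations of same-numbered libraries had correlations from -0.1023 to 0.1089 over 6 pairs of groups. Among the 89 members the library numbered 1 was the higher in 63 (male WT), 81 (male KO), 49 (female WT) and 75 (female KO). With the replicate block the medians of members were 0.07 (males), -0.12 (females), -0.03 (both sexes) and 0.25 (sex difference), and 0 members were called. Of 2537 refits of a named member, 200 changed sign and 0 passed. With 2 libraries a group, the standard error of 0.39 limits what can be seen.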
